A study of Mus musculus with 7 samples.

Results

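Atoh1, Barhl1, Pax6, Meis1, Neurod1, Neurod2, Nhlh1, Nhlh2, Insm1 and Etv1 encode transcription factors that mark successive stages of the cerebellar granule neuron lineage. They were chosen by symbol, and all 10 were found among the 55450 genes in each library, with 61 of the 141767 transcripts. They were followed in polyadenylated RNA from cerebella of C57BL/6 mouse pups at postnatal day 15 (P15), comparing 3 wild-type (WT) libraries with 4 libraries from L3mbtl3 KO/+ pups. KO/+ pups carry 1 knockout allele of L3mbtl3, a chromatin reader with MBT domains that is known to bind the Notch effector RBPJ. Which stretch of L3mbtl3 is deleted, the litters, and whether each library is 1 pup are unstated in the labels, so the p-values measure the spread between these libraries, which may be technical in part.

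Granule neurons arise from progenitors in the external granule layer that divide in response to Sonic hedgehog, leave the cell cycle and migrate inwards past the Purkinje cells. Progenitors express the basic helix-loop-helix (bHLH) factor ATOH1 and the homeodomain factors BARHL1, PAX6 and MEIS1. Daughter cells that leave the cycle take up other bHLH factors, NHLH1, NHLH2, NEUROD1 and NEUROD2, and the zinc finger factor INSM1. The ETS factor ETV1 is expressed in maturing granule neurons. In mice the external granule layer is close to exhaustion at about the third postnatal week.

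Library totals ran from 29248360 to 43761792 expected counts. L3mbtl3 itself stood at 22.6 to 26.8 CPM (expected counts scaled to the normalised library size) in WT and at 17.4 to 23.0 CPM in KO/+ libraries, so the genotypes overlapped and the level does not check the labels. In proliferation, 3 libraries stood apart. The proliferation marker Mki67 was at 61.4 to 63.6 CPM in WT replicate 3, KO/+ replicate 1 and KO/+ replicate 2, and at 152 to 209 CPM in WT replicates 1 and 2 and KO/+ replicates 3 and 4, with no library between. WT replicate 3 also had the highest summed level of 5 oligodendrocyte markers (14341 TPM, a level scaled by transcript length and library, against 6311 to 12216 in the other libraries) and of 6 brainstem markers (4.86 TPM against 0.72 to 1.15), of which 2 passed the filter on low counts. Choroid plexus markers summed to 10.7 and 36.8 TPM in WT replicates 1 and 3 and 14.8 TPM in KO/+ replicate 4, against 1254 to 2311 TPM in the other libraries. Red blood cell markers summed to 2781 to 3054 TPM in WT and 2727 to 6969 TPM in KO/+ (5 of 5 above 0, 0 called), and oligodendrocyte precursor markers to 97.3 to 120 and 57.8 to 94.7 TPM (4 of 4 below 0, 0 called). No marker of these lists was at 0 in all libraries, and their part in the results was not tested, apart from a fit with the choroid plexus score as a covariate, in which 0 members passed. In whole cerebella, fewer cells of a type and less RNA per cell cannot be told apart.

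The promoters of 3 of the 5 members that varied most between libraries, those with a window clear of annotated transcripts, are shown for their E-boxes, the CANNTG motif that bHLH factors bind. Each run is the 250 bases before the RefSeq start on its own strand (GRCm38.p6), 5′ to 3′, with CANNTG in capitals.
Atoh1 (chr6:64728875-64729124, plus strand): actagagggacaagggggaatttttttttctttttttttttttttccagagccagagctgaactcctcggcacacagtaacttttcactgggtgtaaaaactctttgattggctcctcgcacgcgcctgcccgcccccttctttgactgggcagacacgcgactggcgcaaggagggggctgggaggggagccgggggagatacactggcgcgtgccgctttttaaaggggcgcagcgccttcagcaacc
Nhlh1 (chr1:172057597-172057846, minus strand): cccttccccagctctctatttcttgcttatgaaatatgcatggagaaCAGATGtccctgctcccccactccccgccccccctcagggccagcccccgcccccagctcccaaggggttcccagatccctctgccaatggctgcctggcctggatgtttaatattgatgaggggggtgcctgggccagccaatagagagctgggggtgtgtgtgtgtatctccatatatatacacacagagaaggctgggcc
Barhl1 (chr2:28916669-28916918, minus strand): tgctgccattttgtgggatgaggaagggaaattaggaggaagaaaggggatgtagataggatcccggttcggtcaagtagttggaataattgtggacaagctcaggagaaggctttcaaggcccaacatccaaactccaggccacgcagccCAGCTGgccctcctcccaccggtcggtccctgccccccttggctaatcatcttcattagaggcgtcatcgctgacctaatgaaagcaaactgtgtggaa
The Nhlh1 window held 1 E-box, CAGATG, and the Barhl1 window held 1, CAGCTG, while CANNTG did not occur in the Atoh1 window. CANNTG is its own reverse complement in its fixed letters, so a search of 1 strand covers both. Of 32851 RefSeq promoter windows of this length, 66.2% held at least 1 CANNTG, 13.0% held CAGCTG, and 14.4% held CAGATG or its reverse complement CATCTG. These are matches of letters, and binding was not measured.

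By TPM, Neurod1 was the most abundant member with WT libraries at 520 ± 134 TPM (SD, n = 3) and KO/+ libraries at 533 ± 67.4 TPM (SD, n = 4). Pax6 followed at 171 ± 45.8 and 166 ± 27.7 TPM. Neurod2 stood at 97.1 ± 16.6 and 109 ± 10.8 TPM, and Etv1 at 95.4 ± 12.2 and 100.4 ± 13.1 TPM. These levels of Neurod2 and Etv1 did not differ beyond their spread, Neurod2 being higher in 5 of 7 libraries. Insm1 (76.6 ± 34.6 and 67.6 ± 27.7 TPM), Nhlh2 (65.3 ± 23.1 and 60.1 ± 13.0 TPM) and Barhl1 (67.0 ± 20.3 and 58.3 ± 16.3 TPM) lay within each other's ranges. Nhlh1 (50.2 ± 20.9 and 40.2 ± 12.9 TPM) and Meis1 (44.7 ± 11.1 and 40.9 ± 7.94 TPM) overlapped as well. Atoh1, at 7.70 ± 4.15 and 5.40 ± 3.28 TPM, was below every other member in all 7 libraries.

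No member separated the genotypes. All 10 passed the filter on low counts, and edgeR's quasi-likelihood test called 0 of them at a Benjamini-Hochberg adjusted p under 0.05, against 0.0% of the 16813 genes tested. At an unadjusted p under 0.05 it held 0 members, against 3.15% of all genes (530), and DESeq2 and limma-trend on log2(TPM + 1) also held 0 members and called 0 genes, with 597 and 442 of all genes at an unadjusted p under 0.05. The CPM of WT and KO/+ libraries overlapped for all 10 members, where 3.96% of all genes had no overlap. Log2 fold changes (KO/+ relative to WT) were below 0 for 6 members and above 0 for 4, where 51.2% of all genes were below 0. Their median was -0.08, beside -0.0047 over all genes. The split turned with single libraries. Without WT replicate 3, 8 members were below 0 and the median was -0.31. In that edgeR fit 2 members had an unadjusted p under 0.05, with 975 of all 16967 genes, and 0 members were called. Without WT replicate 1 or WT replicate 2, 3 were below 0, with medians of 0.069 and 0.041, and without KO/+ replicate 2, 4 were below 0, with a median of 0.027. Without KO/+ replicate 4, 7 were below 0 and the median was -0.17, and without KO/+ replicate 3, 6 were and it was -0.13.

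**Figure D1:**
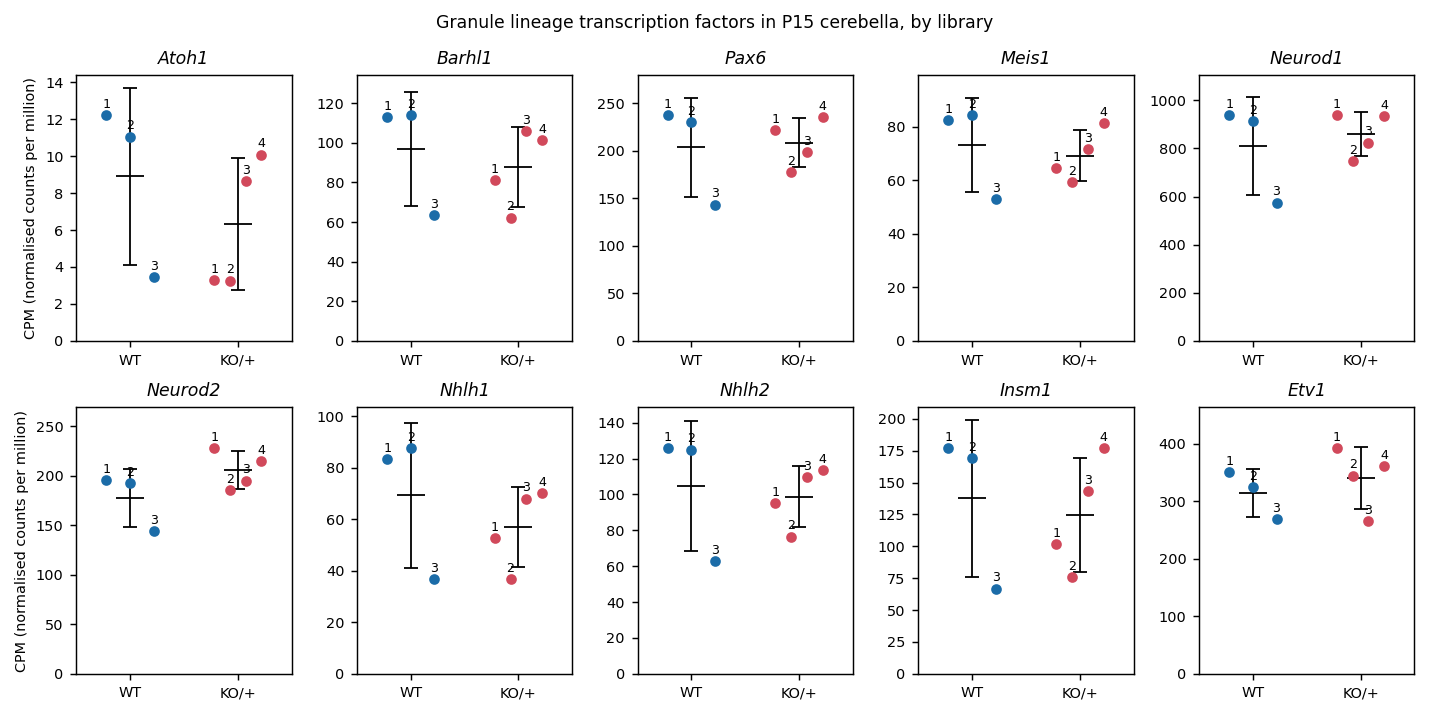
Normalised CPM (y axis, from 0) of each of the 10 factors in the 3 WT (blue) and 4 KO/+ (red) libraries, numbered by replicate, with the mean and SD in black. WT replicate 3 is the lowest library for 7 of the 10 factors, and the genotypes overlap in every panel.

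Among the progenitor factors, Atoh1 (chromosome 6, 64729125 to 64731245, plus strand, GRCm38, a gene of 1 exon), which keeps granule progenitors in their dividing state, measured 12.2, 11.0 and 3.44 CPM in the WT libraries, against 3.30, 3.27, 8.63 and 10.1 CPM in those of KO/+. Both genotypes thus held libraries of about 3 CPM and libraries above 8 CPM. This left a log2 fold change of -0.50 (SE 0.53; 95% interval -1.72 to 0.73; edgeR adjusted p = 0.957), an interval with room for a difference of either sign. It moved to -0.89 without WT replicate 3 and to -0.20 without WT replicate 1.

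Barhl1 (chromosome 2, 28907679 to 28916668, minus strand), a homeodomain factor downstream of ATOH1, measured 113, 114 and 63.4 CPM in the WT libraries, against 81.3, 62.3, 106 and 101 CPM in those of KO/+. Its log2 fold change was -0.14 (SE 0.24; interval -0.70 to 0.42), at -0.37 without WT replicate 3 and -0.0084 without KO/+ replicate 2. Pax6 (chromosome 2, 105668900 to 105697364, plus strand), a paired-domain factor expressed from progenitors to mature granule neurons, measured 237, 230 and 143 CPM in the WT libraries, against 221, 177, 199 and 235 CPM in those of KO/+. Here WT replicate 3 alone stood below all 4 KO/+ libraries, and the log2 fold change of 0.034 (SE 0.18; interval -0.38 to 0.45) became -0.17 without it. Meis1 (chromosome 11, 18879817 to 19018985, minus strand), a TALE homeodomain factor, measured 82.4, 84.3 and 53.0 CPM in the WT libraries, against 64.6, 59.3, 71.6 and 81.2 CPM in those of KO/+. Its log2 fold change was -0.08 (SE 0.18; interval -0.48 to 0.32), with -0.27 without WT replicate 3 and 0.023 without WT replicate 2. The Pax6 gene overlaps the antisense gene Pax6os1, 2 of the genes that overlap Meis1 lie on the opposite strand, and so does Gm26755, which overlaps Neurod1. The library kit keeps the strand, but the sources used here give no strand setting for the counting, so reads of these pairs may not be told apart.

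Among the factors of cells leaving the cycle, Insm1 (chromosome 2, 146221921 to 146225020, plus strand), a zinc finger repressor that acts at the step from progenitor to neuron, measured 177, 169 and 66.9 CPM in the WT libraries, against 102, 75.6, 143 and 177 CPM in those of KO/+. Nhlh1 (chromosome 1, 172052292 to 172057573, minus strand), a bHLH factor of newly formed granule neurons, measured 83.4, 87.7 and 36.7 CPM in the WT libraries, against 52.7, 36.9, 68.1 and 70.3 CPM in those of KO/+. Its close relative Nhlh2 (chromosome 3, 102010076 to 102015492, plus strand) measured 126, 125 and 62.6 CPM in the WT libraries, against 94.9, 76.4, 109.6 and 114 CPM in those of KO/+. For all 3 genes WT replicates 1 and 2 were high and WT replicate 3 was the lowest of the 7 libraries, with KO/+ replicate 2 next. Their log2 fold changes were -0.15 (SE 0.38; interval -1.01 to 0.72) for Insm1, -0.28 (SE 0.32; interval -1.02 to 0.45) for Nhlh1 and -0.08 (SE 0.25; interval -0.65 to 0.48) for Nhlh2. Without WT replicate 3 they were -0.48, -0.59 and -0.35. Insm1 and Nhlh2 turned to 0.069 and 0.068 without WT replicate 1, and Nhlh1 was at -0.083 without WT replicate 2.

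Neurod1 and Neurod2, which drive and maintain granule neuron differentiation and survival, were flatter across the same libraries. Neurod1 (chromosome 2, 79452521 to 79456751, minus strand) measured 938, 914 and 575 CPM in the WT libraries, against 937, 747, 824 and 932 CPM in those of KO/+, and its gene lies within the span of Cerkl on the same strand. Neurod2 (chromosome 11, 98325415 to 98329648, minus strand) measured 195, 193 and 144 CPM in the WT libraries, against 228, 186, 195 and 215 CPM in those of KO/+. In both, WT replicate 3 was the single library below all others. Neurod1 had a log2 fold change of 0.088 (SE 0.18; interval -0.32 to 0.50), which was -0.11 without WT replicate 3. Neurod2 had the smallest SE of the members and a log2 fold change of 0.21 (SE 0.13; interval -0.08 to 0.51; edgeR adjusted p = 0.957), at 0.084 without WT replicate 3. An increase to more than 0.51 on this scale, or a fall of more than 0.08, lay outside the interval for Neurod2.

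Etv1 (chromosome 12, 38779380 to 38870484, plus strand), the factor of maturing granule neurons, measured 350, 325 and 269 CPM in the WT libraries, against 392, 344, 266 and 360 CPM in those of KO/+. Its lowest libraries were KO/+ replicate 3 and WT replicate 3, which stood in different clusters of Mki67. It had a log2 fold change of 0.12 (SE 0.15; interval -0.23 to 0.46), ranging between 0.014 without WT replicate 3 and 0.21 without KO/+ replicate 3.

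**Figure D2:**
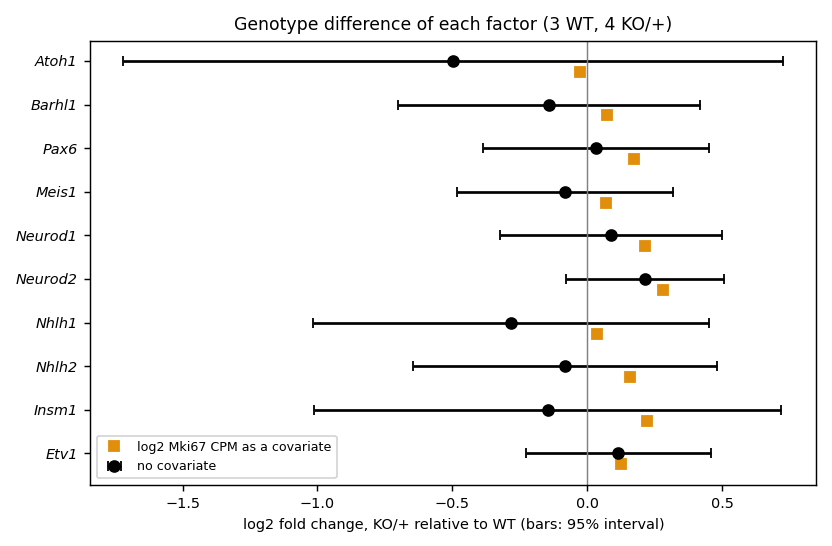
Log2 fold change of each factor, KO/+ relative to WT (x axis; black points with 95% intervals), and the same with log2 Mki67 CPM as a covariate (orange squares, no interval drawn). Every interval includes 0. With the covariate 9 of the 10 factors lie above 0, a count for which the share over all genes was not taken.

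The series from progenitor to neuron was also read as a ratio within each library. Neurod1 exceeded Atoh1 in TPM 57.1-fold, 61.6-fold and 125-fold in the WT libraries, and 211-fold, 170-fold, 71.1-fold and 68.7-fold in those of KO/+. On the log2 scale WT stood at 6.25 ± 0.62 (SD, n = 3) and KO/+ at 6.85 ± 0.84 (SD, n = 4). The difference of 0.60 did not exceed the spread (exact permutation test over the 35 splits, two-sided p = 0.286, Benjamini-Hochberg adjusted p over both ratios = 0.286; the smallest p that 35 splits allow is 0.0286). Etv1 exceeded Atoh1 by 10.02-fold, 10.3-fold and 27.8-fold in WT and by 42.4-fold, 37.1-fold, 11.1-fold and 12.6-fold in KO/+. This log2 ratio differed by 0.61 between genotypes, with the same exact permutation p = 0.286. Both ratios are taken to Atoh1, so they are not separate evidence. The SD of log2 CPM over the libraries was 0.88 for Atoh1, against 0.26 for Neurod1 and 0.21 for Etv1. All 4 KO/+ libraries had a higher Neurod1 to Atoh1 ratio than WT replicates 1 and 2. KO/+ replicates 1 and 2 exceeded WT replicate 3, and KO/+ replicates 3 and 4 lay below it. WT replicate 3 and KO/+ replicates 1 and 2, the libraries of low Mki67, had the highest values of both ratios. The part of Mki67 in the genotype differences was not tested. Without KO/+ replicate 1 the differences fell to 0.31 and 0.29, and without WT replicate 3 they rose to 0.96 and 1.09.

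The members differed in how closely they followed Mki67. Since Mki67 fell into 2 clusters of libraries, no correlation coefficient was computed, and the relation is given as values and slopes without a test. Atoh1 was at 3.27 to 3.44 CPM in the 3 libraries with Mki67 at 61.4 to 63.6 CPM and at 8.63 to 12.2 CPM in the other 4. The 3 libraries of lowest Mki67 were also the 3 lowest for 6 of the 10 members (Atoh1, Barhl1, Meis1, Nhlh1, Nhlh2 and Insm1), where 14.0% of all genes had the same 3 lowest. For Pax6, Neurod1, Neurod2 and Etv1, KO/+ replicate 1 was not among the 3 lowest libraries, and it was the highest of all 7 for Neurod2 and Etv1.

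**Figure D3:**
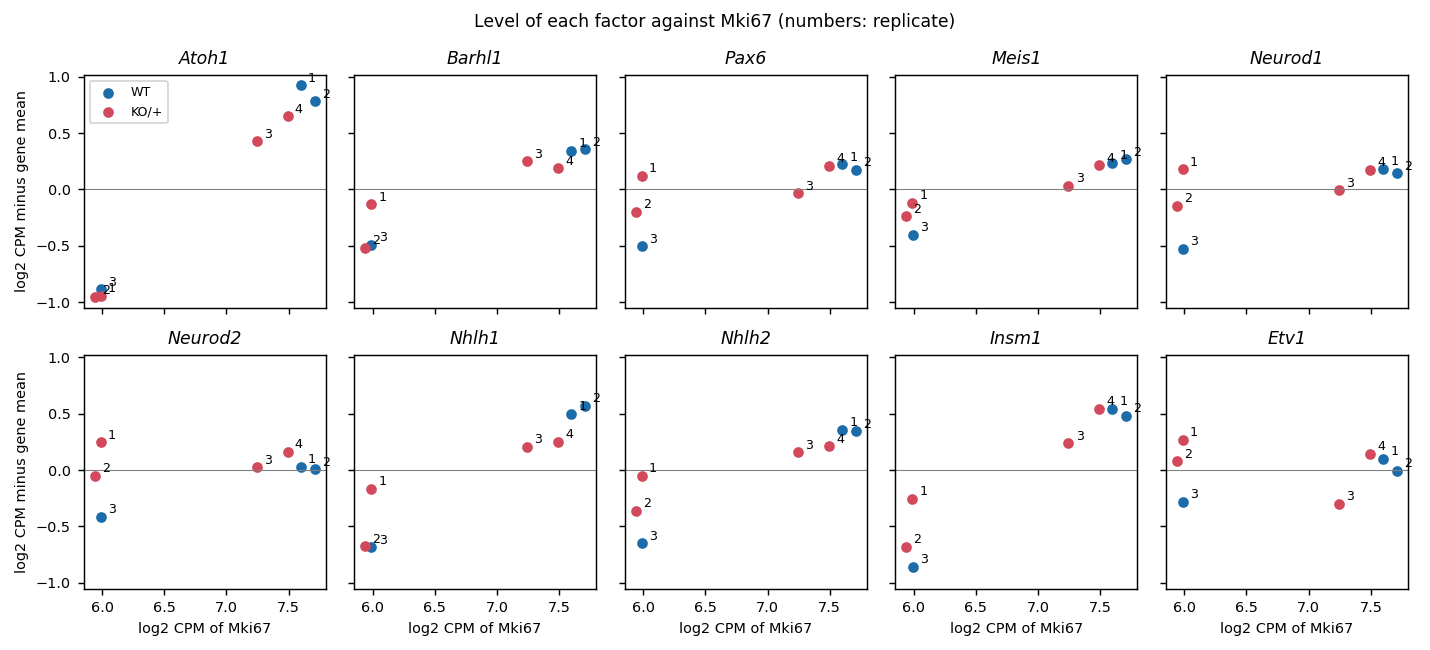
Log2 CPM of each factor minus its mean over the 7 libraries (y axis) against log2 CPM of Mki67 (x axis), with WT in blue, KO/+ in red and replicate numbers beside the points. The 7 points of Atoh1 rise with Mki67, and those of Etv1 do not. In the left cluster WT replicate 3 lies below both KO/+ libraries for 8 of the 10 factors. For Nhlh1 it is nearly level with KO/+ replicate 2 (36.7 and 36.9 CPM). The share over all genes was not counted.

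In an edgeR fit with genotype and log2 Mki67 CPM, the slope is the change in log2 CPM of a gene per log2 unit of Mki67. It was 1.06 (SE 0.074) for Atoh1, so Atoh1 changed in proportion to Mki67. The slope was 0.72 (SE 0.078) for Insm1, 0.59 (SE 0.092) for Nhlh1, 0.44 (SE 0.065) for Barhl1 and 0.43 (SE 0.080) for Nhlh2. It was 0.30 (SE 0.050) for Meis1, 0.25 (SE 0.086) for Pax6, 0.22 (SE 0.090) for Neurod1, 0.12 (SE 0.072) for Neurod2 and 0.018 (SE 0.10) for Etv1. Atoh1 had the highest slope and Etv1 the lowest. Between them the order was not that of the groups used here, with Barhl1, Meis1 and Pax6 of the progenitor group below Insm1 and Nhlh1. The groups are not separate stages, since Pax6 is expressed up to mature granule neurons, so this order does not test the order of stages. The median slope was 0.37 over the 4 progenitor factors and 0.43 over the 5 factors of cells leaving the cycle. All 10 slopes were above 0, where 48.8% of 16775 genes with a unique symbol had a slope above 0, and their median was 0.37 beside -0.0056 over all genes. Oligodendrocyte markers ran the other way, with 0 of 5 slopes above 0 and a median of -0.50, and their part was not tested.

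The slopes were computed within each genotype as well, in libraries that the other does not share. These are least-squares slopes on log2 CPM, not slopes of the edgeR fit. Atoh1 had slopes of 1.04 in the 3 WT and 1.06 in the 4 KO/+ libraries. Insm1 had 0.82 and 0.63, Nhlh1 0.73 and 0.46, Barhl1 0.50 and 0.38, and Nhlh2 0.60 and 0.28. Meis1 had 0.39 and 0.22, Pax6 0.42 and 0.11, Neurod1 0.41 and 0.062, Neurod2 0.26 and 0.0081, and Etv1 0.19 and -0.15. The order of the members was similar in both genotypes (Spearman's rho = 0.95 across the 10 genes, which share libraries within a genotype and are not independent replicates). Every member but Atoh1 had the larger slope in WT, where the slope rests on WT replicate 3 as the single library of low Mki67; the difference between genotypes was not tested.

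**Figure D4:**
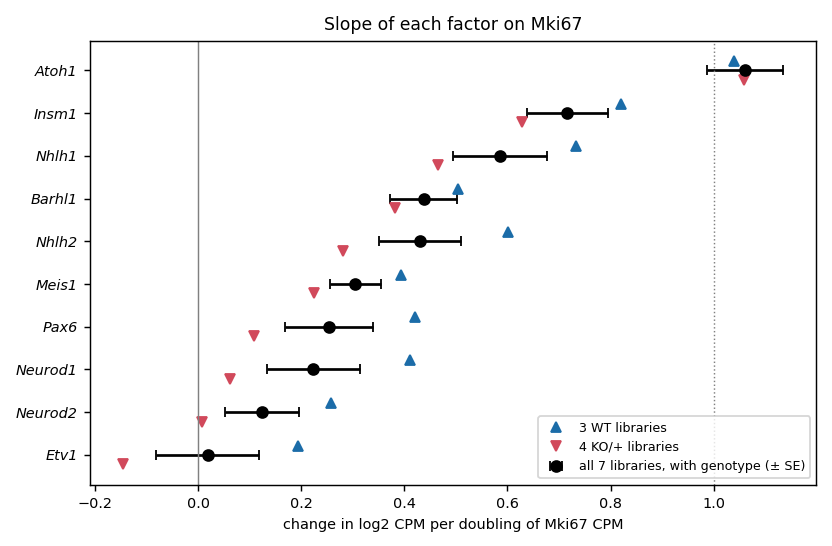
Change in log2 CPM of each factor per log2 unit of Mki67 CPM (x axis), over all 7 libraries with genotype in the fit (black, bars ± SE), in the 3 WT libraries (blue) and in the 4 KO/+ libraries (red). The black slopes are from edgeR, the blue and red ones are least-squares slopes on log2 CPM. Slopes fall from 1.06 for Atoh1 to 0.018 for Etv1, and those of WT lie above those of KO/+ for all members but Atoh1.

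WT replicate 3 and KO/+ replicates 1 and 2 had nearly equal Mki67 (63.6, 63.5 and 61.4 CPM) and nearly equal Atoh1, yet differed in other factors. Neurod1 was at 575 CPM in WT replicate 3 and at 937 and 747 CPM in KO/+ replicates 1 and 2. Pax6 was at 143 CPM against 221 and 177 CPM, whereas Nhlh1 was at 36.7 CPM against 52.7 and 36.9 CPM, so KO/+ replicate 2 was level with WT replicate 3 there. KO/+ replicate 1 exceeded WT replicate 3 for 9 of the 10 members and KO/+ replicate 2 for 8. The share over all genes was not counted, and WT replicate 3 was the lowest of all libraries for 7 members. With log2 Mki67 CPM as a covariate, 9 members had log2 fold changes above 0 in KO/+, led by Neurod2 at 0.28 (SE 0.11), Insm1 at 0.22 (SE 0.12) and Neurod1 at 0.22 (SE 0.14), while Atoh1 was at -0.027 (SE 0.11). The median over the members was 0.14, beside 0.0077 over all genes, and the share of all genes above 0 was not counted. No member passed the threshold, the smallest edgeR adjusted p of a member being 0.777, and 1 member had an unadjusted p under 0.05. The fit called 0.0% of all genes, with 926 at an unadjusted p under 0.05. It compares the genotypes at low Mki67 through WT replicate 3 alone, the library with the highest oligodendrocyte and brainstem marker sums, whose part was not tested.

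Profiles across the 7 libraries were compared with those of 13507 other protein-coding genes that averaged 1 CPM or more, by the root mean square difference of mean-centred log2 CPM. The gene nearest to Atoh1 was Mki67 itself (difference 0.084), followed by Mybl2, a transcription factor of dividing cells (0.087), and Cenpe, a kinetochore motor (0.10). Mybl2 measured 8.87, 9.07 and 2.55 CPM in the WT libraries, against 2.87, 2.52, 6.74 and 7.37 CPM in those of KO/+. Of the other members, Insm1 ranked 158th (0.35) and Nhlh1 226th (0.41) by nearness to Atoh1, and Etv1 ranked 7417th (0.84). Nearest to Insm1 were the lamin gene Lmnb1 (0.055), Igfbpl1 (0.060) and the corepressor gene Rcor2 (0.061). Nearest to Nhlh1 were the replication gene Cdc45 (0.058), the somatostatin receptor gene Sstr2 (0.062) and Fbxo5 (0.067). Nearest to Barhl1 were Rnd3 (0.056), Arhgap19 (0.062) and Dsn1 (0.063), with Nhlh2 28th (0.097). Nearest to Nhlh2 were Sh3bp2 (0.051), Rnd3 (0.056) and Haus5 (0.057), with Barhl1 38th. The other 5 members had an SD of log2 CPM under 0.3 and were not compared in this way.

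Genes that work with the members or mark the same stages were read from the same fit. None of the 3 bHLH E-protein partner genes, Tcf3, Tcf4 and Tcf12, passed the threshold, and all 3 had log2 fold changes below 0 (median -0.05). Tcf3 was at -0.07 (SE 0.20) and Tcf4 at -0.05 (SE 0.15). Of 9 TALE and homeodomain relatives, 0 passed, 4 lay above and 5 below 0. Meis2 was at -2.32 (SE 0.94), with 29.7 CPM in WT replicate 3 and 0.81 to 3.45 CPM in the other 6 libraries, and Barhl2, the paralogue of Barhl1, at 0.24 (SE 0.11). Of 10 measured family relatives, 0 passed, with 4 above and 6 below 0. Atoh7, a relative of Atoh1 best known from the retina, measured 4.75, 5.06 and 7.13 CPM in the WT libraries, against 16.1, 13.7, 8.16 and 5.18 CPM in those of KO/+ (log2 fold change 0.93, SE 0.37, edgeR adjusted p = 0.957), so KO/+ replicate 4 lay within the WT range. Etv5 was at 0.12 (SE 0.070).

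Stage markers gave the setting for these values. All 14 granule progenitor genes lay below 0 (median -0.23) and 0 passed, where 51.2% of all genes lay below 0. Mfap4 was at -0.77 (SE 0.54) and the Hedgehog effector gene Gli2 at -0.53 (SE 0.41). The list includes Mki67. Over the other 13 genes the median slope on Mki67 was 0.56, and for 10 of them the 3 lowest libraries were those of Mki67. Of 13 differentiating granule neuron genes, 10 lay below and 3 above 0 (median -0.18) and 0 passed, with Astn1 at -0.33 (SE 0.13) and the netrin receptor gene Dcc at -0.65 (SE 0.37), and the median slope was 0.29. Of 13 mature granule neuron genes, 12 lay above 0 (median 0.29) and 0 passed, with Cbln1 at 0.31 (SE 0.14) and Slc17a7 at 0.31 (SE 0.15), and the median slope was -0.08. Genes of a list share the same libraries, so their signs are not independent, and these counts were not taken again without single libraries. Low Mki67 was found in WT replicate 3 and in KO/+ replicates 1 and 2, and its part in the signs was not tested. The slope of Atoh1 was above the median of the progenitor genes, and that of Etv1 lay between the medians of the differentiating and mature genes. Markers of unipolar brush cells, which also derive from the rhombic lip, summed to 84.3 to 105 TPM in WT and 92.3 to 106 TPM in KO/+ libraries (4 of 4 measured, 0 passed). Purkinje cell markers (5 of 5 measured, 0 passed) summed to 3289 to 3951 and 3238 to 4539 TPM, and GABAergic interneuron markers (6 of 6, 0 passed) to 1196 to 1589 and 1248 to 1875 TPM.

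Transcripts were examined for the 5 members with more than 1 annotated transcript. Of the members' 61 transcripts, 47 passed the filter on low counts, and edgeR called 0 of them, against 0.0% of 44375 transcripts tested. At an unadjusted p under 0.05 there was 1 (a noncoding transcript, Pax6-212, named after its value was seen: log2 fold change 1.16, SE 0.41), against 2.71% of all transcripts. DESeq2 called 46 of all transcripts, none of them a member's, with 1414 of all and 1 of the members' at an unadjusted p under 0.05. RSEM divides reads between transcripts that share most of their sequence, and the uncertainty of that step was not modelled.

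Pax6 has 26 annotated transcripts, and the alternative exon known as 5a adds residues to the DNA-binding paired domain and changes its binding preference. The exon of 42 bases lies at chr2:105684751-105684792 (GRCm38, plus strand). It is shown in capitals between its flanking bases as found in Pax6-206, above the same stretch of Pax6-207, which is otherwise identical.
Pax6-206: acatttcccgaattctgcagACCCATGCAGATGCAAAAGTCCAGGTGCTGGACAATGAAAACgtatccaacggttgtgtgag
Pax6-207: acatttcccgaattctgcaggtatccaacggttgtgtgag
Of the 10 protein-coding transcripts that span this position, 5 hold the exon. They took 20.6%, 18.7% and 26.8% of the TPM of those 10 in the WT libraries, against 23.2%, 19.6%, 21.4% and 20.7% in those of KO/+. WT replicate 3 was the highest and the other libraries lay between 18.7% and 23.2%. The WT mean was 22.02% ± 4.23 (SD, n = 3) and the KO/+ mean 21.2% ± 1.52 (SD, n = 4), so the means differed by less than the spread. Pax6-207, without the exon, made up 23.9% ± 4.74 of Pax6 TPM in WT and 24.6% ± 1.12 in KO/+, and Pax6-204, also without it, 22.5% ± 0.604 and 22.6% ± 1.44. The 4 transcripts that start near the upstream RefSeq start, from 250 bases before it to 50 after it, made up 45.2%, 44.2% and 39.2% in WT and 40.1%, 39.8%, 43.8% and 43.8% in KO/+. The 3 libraries of low Mki67 had the 3 lowest of these shares. How often transcript shares of other genes took such an order was not counted.

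Etv1 is transcribed from more than 1 start. The 3 transcripts that start near the downstream RefSeq start, within the same distances, made up 22.9%, 23.0% and 29.0% of Etv1 TPM in WT and 28.3%, 28.9%, 26.4% and 25.3% in KO/+. The highest shares were again in the 3 libraries of low Mki67, an order whose rate over other genes was not counted. The total of Etv1 showed no such order. The main transcript of this kind, Etv1-202, had 19.5, 19.8 and 19.98 TPM in WT and 26.9, 24.3, 18.9 and 24.1 TPM in KO/+ (log2 fold change 0.32 with SE 0.15, adjusted p = 0.9997 by edgeR). The longer Etv1-201 had 69.3, 66.0 and 51.0 TPM in WT and 67.6, 60.9, 52.1 and 71.7 TPM in KO/+ (log2 fold change 0.09, SE 0.15). Whether the 2 transcripts differ in response was not tested.

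The main transcripts of the other 3 genes differed little between genotypes. Barhl1-203 made up 49.1% ± 3.59 of Barhl1 TPM in WT (SD, n = 3), against 49.0% ± 2.35 in KO/+ (SD, n = 4), and Barhl1-201 32.8% ± 1.57 and 34.1% ± 1.35. Meis1-201 made up 51.1% ± 2.58 and 49.5% ± 3.91 of Meis1, and Meis1-203, which is annotated as a noncoding processed transcript, 40.02% ± 2.12 and 40.4% ± 2.65. Nhlh2-202 made up 87.7% ± 1.03 and 88.9% ± 1.10 of Nhlh2. For the Barhl1 and Meis1 transcripts named here the genotype means differed by less than the SD of a genotype. The smaller Barhl1 transcripts varied more between libraries, Barhl1-204 from 6.57% to 11.03% and Barhl1-205 from 4.74% to 9.92%. For Nhlh2-202 the difference exceeded both SDs, and so it did for Nhlh2-203 (8.48% ± 0.68 in WT, 7.24% ± 1.11 in KO/+). The libraries of the genotypes overlapped for both (Nhlh2-202 at 86.7% to 88.7% in WT and 87.5% to 90.1% in KO/+, Nhlh2-203 at 7.77% to 9.12% and 5.88% to 8.59%).

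**Figure D5:**
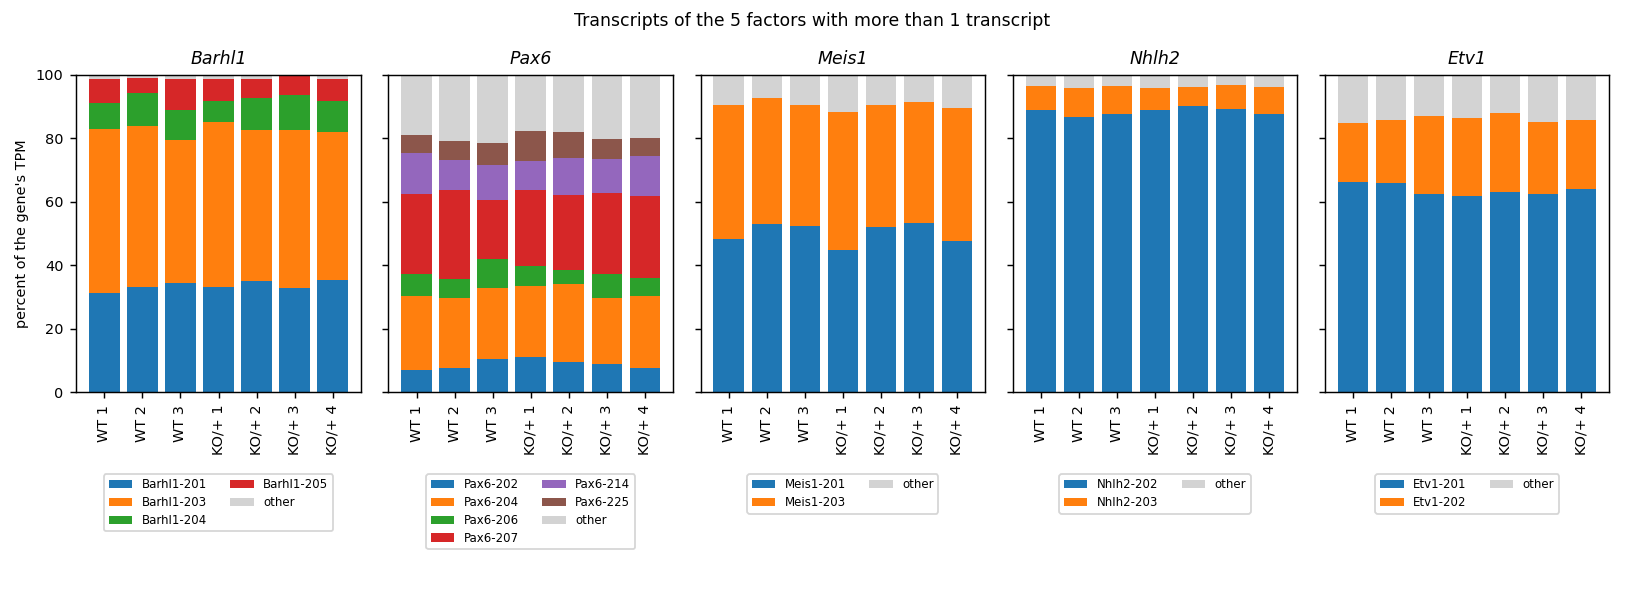
Percent of each gene's TPM (y axis, from 0) taken by each transcript with a mean of at least 5%, stacked per library, with the remaining transcripts in grey. Nhlh2 is made up mostly of Nhlh2-202 (86.7% to 90.1%), and the orange share of Etv1 (Etv1-202) is 18.6% to 19.8% in WT replicates 1 and 2 and 21.6% to 25.1% elsewhere.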

How the data were processed

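Polyadenylated RNA of 7 P15 cerebellar libraries (3 WT, 4 KO/+) was sequenced with a directional kit, per the labels. Per the submitters' processing notes, bcl2fastq, Trimmomatic 0.39, STAR 2.5.2a and RSEM 1.3.1 were used and the builds mm10 and GRCm38 named; the sources used here do not give their settings. RSEM's estimated reads per gene and transcript are the deposited expected counts, which can be fractional, per the file headers. TPM, also deposited by the authors, scales them by effective length and library. All 55450 gene IDs were found in GENCODE M21 (GRCm38). The 6 tables of the whole series were not used.

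Expected counts were rounded, filtered with filterByExpr and scaled with TMM. KO/+ was compared with WT over all genes (16813) or transcripts (44375) by the quasi-likelihood test of edgeR 4.0.16 (glmQLFTest after a robust glmQLFit), with Benjamini-Hochberg adjustment and a threshold of 0.05. Genes had a median SE of 0.142 in log2 fold change, at a common biological coefficient of variation of 18.7%. Log2 CPM for profiles and slopes used a prior count of 2. Ratios were tested by exact permutation. Alternatives were DESeq2 1.42.0, RLE factors, other filters, limma-trend (limma 3.58.1) with pseudocounts of 1 or 0.1, the replicate number as a block, log2 Mki67 CPM or the choroid plexus score as a covariate, and leaving out each library. Scripts were tested on simulated data. Promoter sequences are RefSeq's (GRCm38.p6), with at least 1 window for 9 of the 10 members. Analyses ran in R 4.3.3 and Python 3.11.15 with SciPy 1.17.1.

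The members, gene lists and tests were chosen with earlier results of these data known. Named were all members, Mki67, L3mbtl3, the 2 genes of smallest p per list, the 3 nearest profiles of members with an SD of log2 CPM of at least 0.3, and transcripts of at least 5% of a gene's TPM. Every pair of libraries differed by more than sampling noise, and each counts as 1 replicate.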

Additional observations from a re-analysis of the deposited data

How the results depend on the processing

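The call of no gene between genotypes held under DESeq2, RLE factors, both other filters, limma-trend with either pseudocount and both covariates. With the replicate number as a block, edgeR called 1 gene (Eif3j2), and leaving out 1 library gave between 0 and 1 (Wdfy1 without WT replicate 2, Fam220a without WT replicate 3, Eif3j2 without KO/+ replicate 4), all named after their values were seen. For transcripts, DESeq2 called 46, edgeR without a filter 3 (Slc35c2-203, Senp2-205 and Adgrl3-217), and leaving out 1 library gave between 0 and 2. None of these was a member or a member's transcript. Same-numbered libraries did not deviate together (correlations of 0.0863, -0.17 and -0.0217 over genes), so the numbers were not taken as pairs. With the replicate block Atoh1 was at -0.84 and the median over the members was -0.13. The log2 ratios to Atoh1 differed by 0.85 (Neurod1) and 0.87 (Etv1), both over replicates 1 to 3 only, with no other call changed. As WT has no replicate 4, the block compares the genotypes through replicates 1 to 3. It is thus nearly the same contrast as leaving out KO/+ replicate 4 (Eif3j2 at 3.79 and 3.78), and the 2 settings are not separate evidence.

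Over 160 fits of the members under the alternatives, 0 passed the threshold and 19 changed sign. With log2 Mki67 CPM as a covariate, Barhl1 turned to 0.072, Meis1 to 0.071, Nhlh1 to 0.035, Nhlh2 to 0.16 and Insm1 to 0.22. Pax6 turned to -0.014 by limma-trend with either pseudocount and to -0.0015 with the replicate block. Leaving out 1 library moved Pax6 between -0.17 and 0.15, Meis1 between -0.27 and 0.023, Neurod1 between -0.11 and 0.20, Nhlh2 between -0.35 and 0.068 and Insm1 between -0.48 and 0.069. Of the transcripts, Barhl1-201 ranged so from -0.28 to 0.034, Barhl1-204 from -0.39 to 0.053, Etv1-201 from -0.014 to 0.18, Meis1-201 from -0.28 to 0.012, Meis1-203 from -0.26 to 0.062, Nhlh2-202 from -0.30 to 0.11, Pax6-204 from -0.17 to 0.17 (-0.031 with the replicate block), Pax6-207 from -0.27 to 0.22 and Pax6-214 from -0.19 to 0.25. The cause of these changes was not tested. Atoh1, the member of lowest level, had 114 to 465 expected counts per library, and the effect of depth was not tested. The SE of the members came to 0.128 to 0.533 over 3 and 4 libraries.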
